A study of Rattus norvegicus with 24 samples.

Results

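Odorant receptor families 5 and 8 are large families of class II olfactory receptor genes, named Or5 or Or8 followed by a letter for the subfamily and a number for the gene. Members were all genes with that current rat symbol and a probe set annotated to 1 gene, with no filter on brightness. A gene with several probe sets was represented by the one with the highest mean over the nose arrays. The rule gave 270 genes, 150 of family 5 and 120 of family 8, out of 14506 named genes on the array. They fell into 41 subfamilies, of which 20 had at least 4 genes, and 5 genes had several probe sets. A further 18 probe sets that carried several symbols, among them a family 5 or 8 gene, were left out.

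Male Fischer rats about 8 weeks old at the start breathed 2 ppm formaldehyde, made from isotope-labelled paraformaldehyde, through nose-only tubes for 6 hours a day. Exposure lasted 7 or 28 days, and control rats of each duration sat in the same kind of tube with room air. RNA from the lining of the maxilloturbinate, a scroll of bone inside the nose, and from circulating white blood cells was hybridised to Affymetrix arrays. There were 8 groups (nose or blood, 7 or 28 days, control or exposed) of 3 arrays each. The labels do not say whether replicates of a group were separate animals, so p-values measure only the spread between these samples. Every level below is the log2 of the normalised intensity that was deposited for a probe set. Brightness depends on the probes as well as the RNA, so levels of different genes were not read as relative amounts of RNA.

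Each olfactory sensory neuron of the main olfactory epithelium expresses 1 odorant receptor allele out of the whole repertoire, so the bulk signal of a receptor reflects a small share of the cells. A bound odorant activates the receptor, which signals through the olfactory G protein and adenylyl cyclase type III to open a cyclic nucleotide-gated channel. Neurons that choose a given receptor lie within a zone of the epithelium that runs from dorsal to ventral, and family members often sit side by side in genomic clusters. In bulk tissue, fewer olfactory neurons and less receptor RNA per neuron cannot be told apart.

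Several members are near-copies, which bears on how far their probe sets can be told apart. RefSeq sequence (GRCr8) was found for 231 of the 270 members, and in all 231 the stretch after the annotated start opened with ATG, so these are the first 50 coding bases. Of 26565 pairs of members, 11 were identical over those 50 bases and 42 shared at least 48, a set that involved 45 members. The Or5h17 group is shown because it includes the largest difference in the nose at 7 days. The 3 copies lie at chr11:54932209-54932258, chr11:54964977-54965026 and chr11:54987952-54988001, all on the minus strand, and no base is in capitals because none differs.
Or5h17: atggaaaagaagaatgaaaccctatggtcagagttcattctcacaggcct
Or5h17b: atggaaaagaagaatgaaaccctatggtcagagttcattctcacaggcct
Or5h17c: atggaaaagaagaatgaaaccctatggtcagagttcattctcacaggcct
Upstream of the start codon Or5h17 matched Or5h17b at 238 of 250 bases and Or5h17c at 159 of 250. The genes Or5h26b (chr11:54711384-54711433, plus strand) and Or5h27 (chr11:54621454-54621503, minus strand), which are among the 12 largest differences, shared at least 48 of the 50 bases. Capitals mark the bases at which the pair differs.
Or5h26b: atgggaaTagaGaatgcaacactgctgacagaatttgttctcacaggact
Or5h27: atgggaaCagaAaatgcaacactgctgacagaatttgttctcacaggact
No 2 members had the same values on every array. The probe sequences were not used here, so values of near-copies are uncertain to the extent that they share probes.

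Promoters of odorant receptor genes are known for A/T-rich stretches and for sites of homeodomain factors such as Lhx2 and of Ebf factors. The 250 bases before the start codon of Or5h26b (chr11:54711134-54711383, plus strand) are printed because this gene rose in the nose and its window holds TAATTA, the core of many homeodomain sites, in capitals.
Or5h26b upstream: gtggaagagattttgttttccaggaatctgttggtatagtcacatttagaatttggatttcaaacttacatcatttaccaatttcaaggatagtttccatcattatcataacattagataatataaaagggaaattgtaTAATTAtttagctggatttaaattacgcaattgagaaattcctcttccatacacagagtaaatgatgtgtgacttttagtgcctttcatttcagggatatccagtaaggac
TAATTA reads the same on both strands. It occurred in 44 of 231 member windows of 250 bases (19.0%), in 189 of 1028 windows of all odorant receptor genes (18.4%) and in 1626 of 33469 windows of all genes (4.86%). Member windows were 66.7% A or T, against 47.8% for all genes. Among members that rose in the nose at 7 days 23 of 105 windows held it (21.9%), and among the others 21 of 126 (16.7%). Every window was cut at the annotated start of the gene model. In members that was the start codon, and for other genes this was not checked. The shares in members and in all genes may therefore come from unlike stretches. Whether the member windows hold promoters was not tested. These are counts of letters, and binding was not measured.

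On the deposited scale most receptor probe sets read higher in nose than in blood. In controls of the 7-day groups 240 of 270 members were higher in nose than in blood and 0 lower, against 59.5% of all 29214 probe sets higher (limma, Benjamini-Hochberg adjusted p under 0.05 over all probe sets). At 28 days 263 members were higher and 0 lower, against 51.0% of all probe sets. Nose and blood arrays were on different scales, since the median difference over all probe sets was 0.44 at 7 days and 0.29 at 28 days, and the members' medians were 1.24 and 1.66. With each array centred on its own median, 126 members were higher and 29 lower at 7 days and 226 higher and 4 lower at 28 days. The share of all probe sets after centring is not reported here, so these counts cannot be set against the whole array. On the deposited scale all 3 nose control arrays exceeded all 6 blood arrays of that day for 237 members at 7 days (87.8%, against 59.2% of all probe sets) and for 256 at 28 days (94.8%, against 43.9%).

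The widest gaps between nose and blood belonged to Or8g52, Or8k3 and Or8k22. Or8k22 read 4.56, 9.12 and 8.25 on the 7-day nose controls, while its highest 7-day blood value was 3.83. The difference was 3.66 (limma, adjusted p = 0.0002445). At the other end, Or5h25 and Or8g18c differed between nose and blood controls by −0.21 (adjusted p = 0.5988) and −0.11 (adjusted p = 0.6059), and with arrays centred both were lower in nose. The probe sets of Or5p60b, Or8b12d, Or8b9, Or5al7 and Or8b101c gave the brightest signals in nose controls, with 6-array means of 8.32, 8.32, 8.16, 7.91 and 7.82, which is a statement on signal and not on amounts of RNA. Only 114 of the 270 members had a mean over nose arrays at or above the lower quartile of all probe sets (6.61), and 21 one at or above the median (7.83), so most members were read near the dim end of the array.

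The tissue carried olfactory cells, although the labels name nasal epithelial cells of a turbinate that is mostly lined by respiratory epithelium. Omp, the olfactory marker protein of mature olfactory neurons, read 9.62, 11.66 and 11.33 on the 7-day nose controls and 7.04 to 7.52 on the 7-day blood arrays. Foxj1, the regulator of motile cilia in respiratory cells, read 9.83, 9.68 and 9.89 there. The leukocyte marker Ptprc read 9.23 to 9.63 on these nose controls and 12.8 to 12.9 on the 7-day blood arrays. How much olfactory lining each nasal sample held was not measured.

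After 7 days of formaldehyde, receptors of both families were higher in the nose. Of 270 members 118 rose (43.7%) and 0 fell (limma, adjusted p under 0.05), while 7.22% of all probe sets rose and 5.62% fell. Another 152 did not pass the threshold. All but 1 of the 270 differences were above 0, and the median was 0.97 on the log2 scale (interquartile range 0.65 to 1.42), beside −0.05 for all probe sets. The exception, Or5w13b, had a difference of −0.01 (adjusted p = 0.9844). Of the 118 that rose, 92 did so by at least 2-fold. In family 5, 70 of 150 rose (46.7%, median difference 0.88), and in family 8, 48 of 120 (40.0%, median difference 1.06).

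The shift was visible on each array. The median level over the 270 members was 5.74, 6.41 and 6.18 on control replicates 1 to 3 and 7.52, 7.13 and 6.98 on exposed replicates 1 to 3. The exposed arrays lay above every control array, and control replicate 1 was the lowest. Over the same arrays the median of all probe sets stayed between 8.26 and 8.28. For 185 members (68.5%) all 3 exposed arrays exceeded all 3 controls, which held for 18.3% of all probe sets, and for 0 members were all exposed arrays below all controls (27.8% of all probe sets). The median difference of 0.97 was 0.62 without control replicate 1, where 81 members rose. Without exposed replicate 1, 76 members rose, and 41 of the 114 that passed the lower-quartile filter rose when dimmer probe sets were removed.

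**Figure D1:**
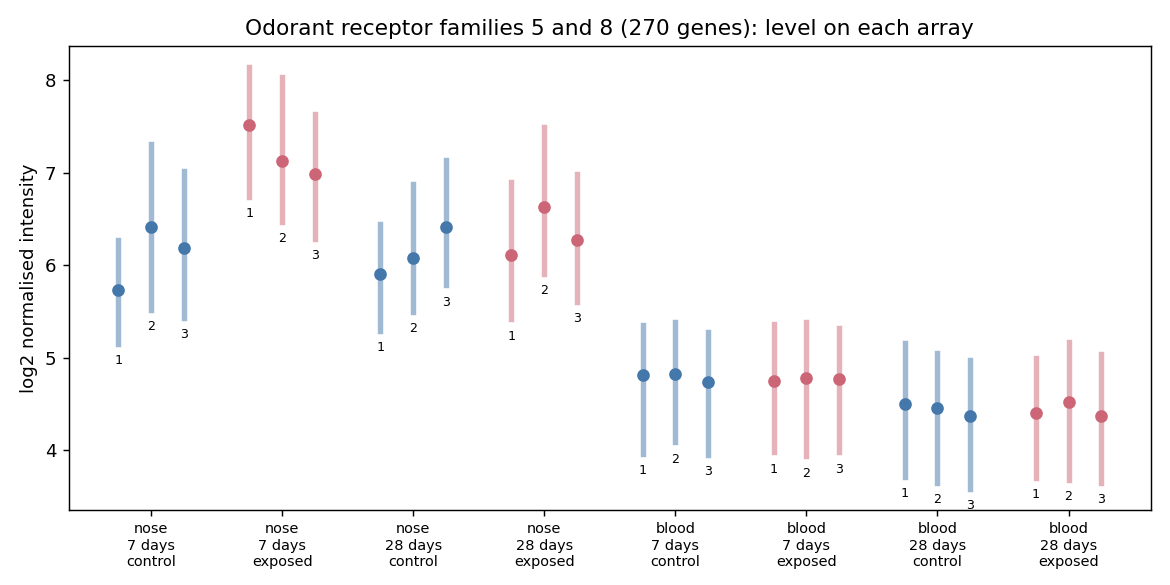
Level of the 270 receptors of families 5 and 8 on each array, on a log2 scale of normalised intensity. Points are medians, bars span the interquartile range, and the number below each bar is the replicate. Medians of the exposed 7-day nose arrays lie between 6.98 and 7.52 and those of the controls between 5.74 and 6.41. Levels at 7 and 28 days are on different scales.

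Members of the Or5h subfamily made up many of the largest rises. Or5h17c (gene 288190, probe set 10753565) read 3.79, 2.63 and 3.68 on the controls and 8.89, 8.37 and 8.77 on the exposed arrays. Of its controls 1 lay within the range of the 7-day blood arrays, 2.51 to 2.86, and all exposed arrays were far above both. The difference in signal was 5.31 ± 0.70 (SE; limma, adjusted p = 0.001579). The nose controls were not past the threshold against blood controls (0.63, adjusted p = 0.3092), so no fold is given against them. Or5h26b read 5.87, 2.92 and 4.33 on controls and 9.53, 8.42 and 8.66 on exposed arrays, a difference of 4.50 ± 0.94 (limma, adjusted p = 0.01317). Its controls spread over almost 3 log2 units, and its call was lost without exposed replicate 1. Or5h25 read 5.24, 4.87 and 4.72 against 8.83, 7.94 and 8.64. Or5h17 read 3.02, 2.68 and 2.96 against 5.49, 6.52 and 6.60, and Or5h27 ran from 4.34 to 5.10 on controls and read 8.83, 7.12 and 7.58 on exposed arrays. The differences of these 3 genes were 3.53 ± 0.45, 3.32 ± 0.38 and 3.03 ± 0.43, and in each the groups did not overlap. The controls of Or5h25 and Or5h17 also did not pass against blood, with differences of −0.21 and 0.19. Or5h17b, whose start is identical to that of Or5h17, rose by 1.65 ± 0.21, from 3.39 to 3.65 on controls to 4.89 to 5.42 on exposed arrays. Or5h24 and Or5h24b, which are identical over all 300 bases compared, rose by 1.82 ± 0.37 and 2.00 ± 0.24.

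Other members with the largest rises came from 7 further subfamilies. Or5k17 (gene 404978, probe set 10750645) read 5.48, 3.63 and 4.02 on controls and 9.15, 7.78 and 8.40 on exposed arrays, a difference of 4.07 ± 0.50 or 16.8-fold (limma, adjusted p = 0.001167). Or8k40 (gene 295767, probe set 10847002) read 5.67, 6.01 and 5.46 on controls and 9.80, 8.61 and 8.99 on exposed arrays, a difference of 3.42 ± 0.35 or 10.7-fold (adjusted p = 0.0006637). In both the lowest exposed array stood more than 2 log2 units above the highest control. Or8b44 read 4.90, 4.30 and 4.68 against 8.41, 7.57 and 7.54, a rise of 3.21 ± 0.33 from a control signal 0.03 above blood (adjusted p = 0.9379). Or5t5b read 5.20, 4.92 and 4.53 against 8.37, 7.18 and 7.52, a rise of 2.81 ± 0.27 (adjusted p = 0.0005534). The remaining members of the 12 were Or5an1b, Or8h10 and Or5aq7, which rose by 3.24 ± 0.41, 2.62 ± 0.32 and 2.54 ± 0.30. Exposed replicate 1 was the highest exposed array for 11 of the 12, Or5h17 being the exception.

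The rise was uneven between subfamilies. All 10 Or5h genes rose (median difference 2.60), as did all 8 Or8h genes (1.38) and all 5 Or8s genes (1.29). In Or5k 5 of 6 rose (median 1.60), in Or5ac 5 of 7 (1.44) and in Or5aq 3 of 4 (2.04). In the largest subfamilies smaller shares passed the threshold, 13 of 40 in Or8b (1.04), 10 of 28 in Or8g (1.11) and 11 of 26 in Or5p (0.85). Between these lay Or5b with 11 of 20 (1.09) and Or8c with 6 of 12 (1.17). None of the 9 Or5m genes or the 4 Or8u genes passed, although their median differences were 0.73 and 0.80. Without control replicate 1 the medians of several subfamilies fell by over 1.5 times, to 0.54 in Or8b, 0.59 in Or8g, 0.54 in Or5p, 0.20 in Or5m and 0.33 in Or8u, whereas that of Or5h was 2.81. Differences between subfamilies were not tested.

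**Figure D2:**
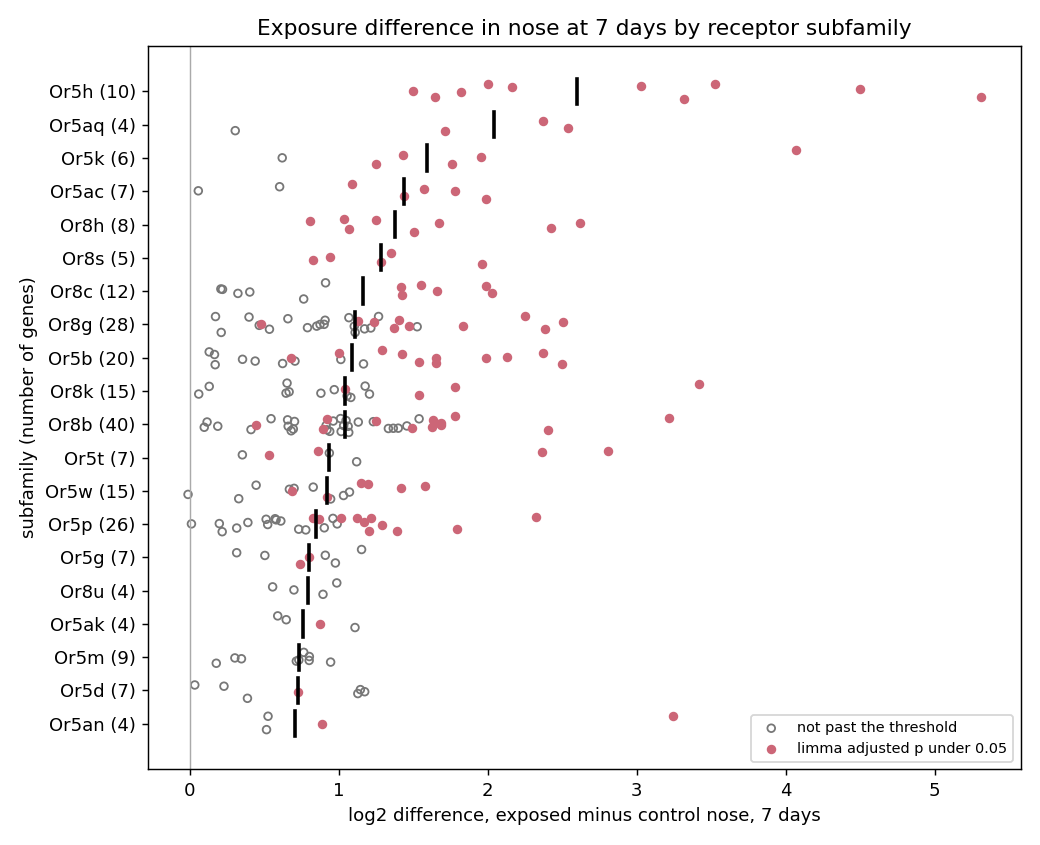
Log2 difference between exposed and control nose arrays at 7 days for each gene, by subfamily with at least 4 genes (number of genes in brackets). Filled points passed limma at adjusted p under 0.05, open points did not, and black bars are subfamily medians. The median was 2.60 in Or5h and 0.73 in Or5m, and 1 gene lay below 0.

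The leading gene of each subfamily was also named. A larger subfamily has more genes to draw it from, and the leading genes did not follow the order of the subfamily medians. Or8s10 read 8.01, 7.74 and 7.50 on controls and 10.09, 9.33 and 9.71 on exposed arrays (1.96 ± 0.32). The largest rise was 2.50 in Or8g (Or8g30), 2.50 in Or5b (Or5b106), 2.33 in Or5p (Or5p1), 2.03 in Or8c (Or8c20), 1.99 in Or5ac (Or5ac24) and 1.58 in Or5w (Or5w16). In 5 subfamilies the gene with the largest difference did not pass: Or5ak24 (1.11), Or5d20 (1.18), Or5g25 (1.15), Or5m8 (0.95) and Or8u10 (0.99). Their control SDs, from 0.66 to 1.53 with n = 3, were wide. For Or5g25 the control mean was 7.74 ± 1.53 (SD, n = 3) and the exposed mean 8.89 ± 0.27.

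Genomic neighbours were also described together, since receptor genes of these families lie in clusters. Members no more than 1 Mb apart in GRCr8 formed 6 runs of at least 4 genes, which held 262 members. The run of the Or5h, Or5ac and Or5k genes had 20 of 23 members rise, with a median difference of 1.78 and a mean level of 4.69 on controls and 6.79 on exposed arrays. The run led by Or8b, Or8g and Or8c had 30 of 83 rise (median 1.07), and the run led by Or5w and Or8k had 30 of 97 (median 0.86). In the run of Or5b, Or5an, Or5a and Or5bb genes 16 of 28 rose (1.01). The Or5p and Or8s genes each formed a run of their own, with the counts given for the subfamily. Subfamily and run overlap, so these are not separate observations.

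Control arrays differed among themselves, and far more for some members than for others. Or8k22 read 4.56, 9.12 and 8.25 on control replicates 1 to 3 and 8.21, 8.91 and 8.06 on the exposed arrays. Or8b9 read 6.72, 9.69 and 9.09 and then 9.72, 9.72 and 9.21, and Or5p60b read 6.86, 9.15 and 8.73 and then 9.22, 9.46 and 8.94. In these genes control replicates 2 and 3 lay within or near the exposed arrays and control replicate 1 alone was low. Their differences of 1.08, 1.05 and 0.96 did not pass (limma, adjusted p = 0.5903, 0.4482 and 0.2344). Or5h17c, Or5k17 and Or8k40, by contrast, were low on all 3 control arrays.

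In a list of zone markers 1 of 10 measured genes rose and 1 fell, where 7.22% of all probe sets rose and 5.62% fell. The list had 5 differences above 0 and 5 below (median −0.10). Ncam2, an adhesion molecule of ventral-zone olfactory neurons, read 7.31, 7.16 and 7.44 on controls and 10.17, 9.18 and 9.48 on exposed arrays (2.31 ± 0.29, limma adjusted p = 0.001292). Acsm4, an enzyme marker of the dorsal zone, read 9.26, 11.39 and 11.12 on controls and 11.74, 11.67 and 11.28 on exposed arrays (0.98 ± 0.77, adjusted p = 0.4938). Ncam2 and Acsm4 were picked from the list after their values were seen, because their control arrays differ as those of the receptors do. Nrp1, Nrp2, Sema3f, Nfia, Nfib and Nfix had neither pattern: none passed, and control replicate 1 was not low. In them the mean of control replicates 2 and 3 minus replicate 1 ran from −0.11 (Sema3f) to −0.0025 (Nfia). It was 0.82 in Robo2 and 2.00 in Acsm4. Nqo1, another dorsal marker that other nasal cells also express, fell by 0.79 ± 0.20 (adjusted p = 0.02753). The sampled region of each nose was not recorded, and its part in these differences was not tested.

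**Figure D3:**
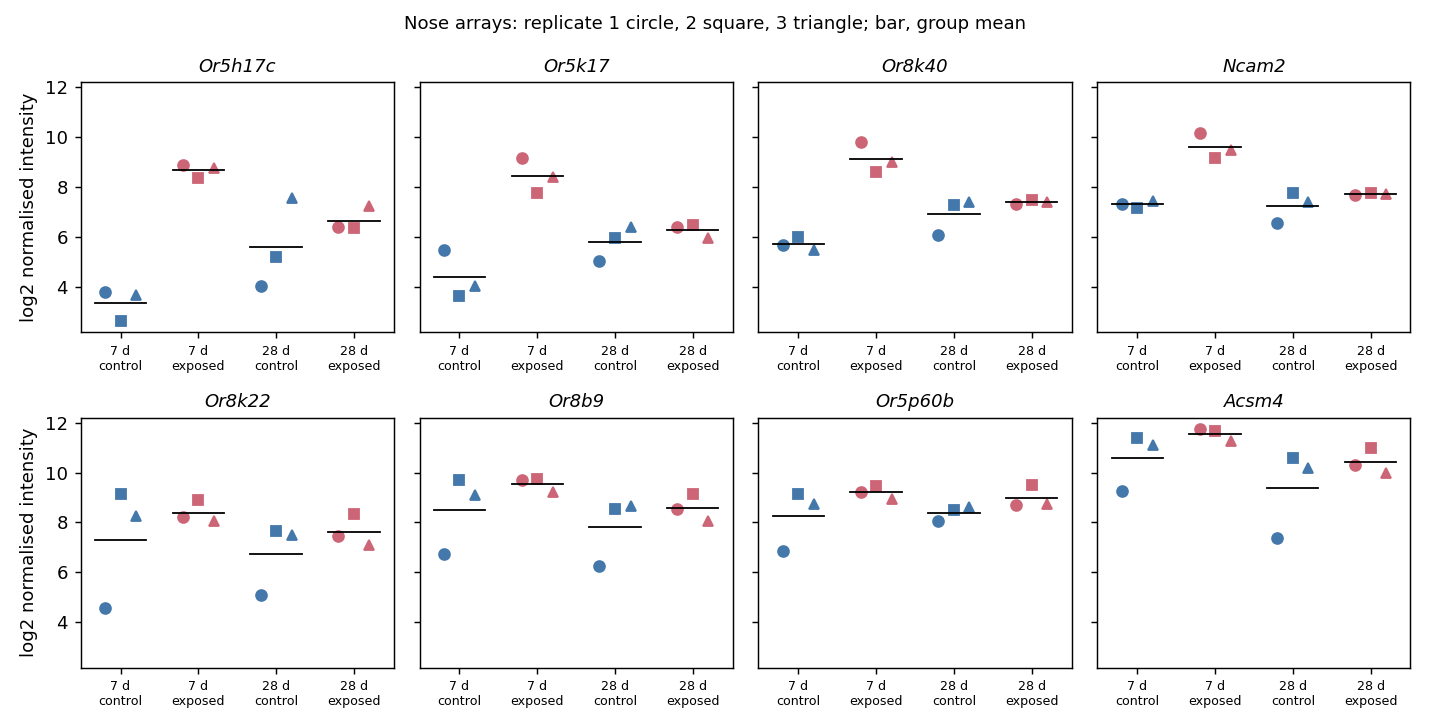
Log2 normalised intensity of 6 receptors and 2 zone markers on each nose array, with a bar at the group mean and replicates as circle, square and triangle. In the upper row all 3 control arrays at 7 days are low, and in the lower row control replicate 1 alone is low. Levels at 7 and 28 days are on different scales.

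Members were also grouped by the 28-day controls, a split chosen after the values were seen. Levels of these controls do not enter the 7-day difference, but their spread enters its standard error and adjusted p. In 49 members (13 of family 5, 36 of family 8) control replicate 1 at 28 days was at least 2-fold below the mean of replicates 2 and 3. The same step in the 7-day controls was found in 87 members, and 38 had it on both days. The split therefore differs from the 7-day pattern: Or5h17c, Or5k17 and Or8k40, low on all 3 controls at 7 days, were among the 49. Of the 49, 11 rose at 7 days (22.4%, against 7.22% of all probe sets), and their median difference was 1.11. Of the other 221 members 107 rose (48.4%), with a median of 0.90. The median standard error of the difference was 0.51 in the 49 and 0.25 in the 221. The 49 were picked for spread 28-day controls, so a larger standard error and a smaller share called are partly built in. The shares called therefore cannot tell whether the differences were smaller in the 49. Without control replicate 1 of the 7-day group the median differences were 0.52 in the 49 and 0.66 in the 221, so their order depended on that array. Control replicate 1 was the lowest control for 171 of 270 members at 7 days and for 168 at 28 days. The share over all probe sets was not counted, so this order cannot be called particular to the members. The label does not tie replicate 1 of one duration to replicate 1 of the other.

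Genes of the olfactory pathway were read from 5 lists with 66 measured genes, of which 16 rose and 3 fell at 7 days. Of all probe sets 7.22% rose and 5.62% fell. In the odour transduction list 7 of 16 rose and 0 fell (median difference 1.37). Cnga4, a subunit of the cyclic nucleotide-gated channel, rose by 2.15 ± 0.48, Cngb1, another subunit, by 1.17 ± 0.23, and Slc24a4, the sodium-calcium exchanger of the cilia, by 1.88 ± 0.34. Omp read 13.07, 12.80 and 12.75 on exposed arrays, above the 3 control values, with a difference of 2.00 ± 0.74 that did not pass (limma, adjusted p = 0.1034). Cnga2, the main channel subunit, and Adcy3, the cyclase, had differences of 2.51 ± 0.89 (adjusted p = 0.09111) and 1.91 ± 0.57 (adjusted p = 0.05135). The mean level of the list ran from 9.80 to 10.8 on control arrays and from 11.7 to 12.0 on exposed arrays, with control replicate 1 lowest.

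Genes for receptor choice and trafficking were read next. In that list 6 of 17 rose and 0 fell (median difference 1.20). Rtp1 and Rtp2, chaperones that carry odorant receptors to the surface, rose by 1.81 ± 0.47 and 1.10 ± 0.17. Ebf1 and Ebf3, transcription factors of olfactory neurons, rose by 1.34 ± 0.30 and 1.85 ± 0.51. Lhx2, a homeodomain factor needed for receptor expression, had a difference of 1.81 ± 0.67 that did not pass (limma, adjusted p = 0.1036). Kdm1a and Hspa5, which many cells express, had differences of 0.06 and −0.05.

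Markers of other cell types were also read, beside 7.22% of all probe sets that rose and 5.62% that fell. In the immature neuron list 2 of 12 rose and 0 fell (Gap43 by 0.79 ± 0.19 and Crmp1 by 1.20 ± 0.31). All 12 of its differences were above 0, with a median of 1.17. Its mean level was 8.62 to 9.64 on controls and 10.2 to 10.6 on exposed arrays. In the supporting cell list 0 of 12 rose and 2 fell (Aqp5 by 0.38 and Gsta3 by 0.46), while the median difference was 0.41 and 7 of 12 were above 0. Bpifb3, Ugt2a1 and Cyp2g1, which olfactory supporting and gland cells express, had differences of 1.92, 1.20 and 0.75 that did not pass. The list had mean levels of 11.2 to 11.5 on controls and 11.75 to 11.82 on exposed arrays. In the ciliated cell list Ccdc40 and Rsph1 rose, Spag6l fell and the other 4 did not pass. Of the 8 measured white blood cell markers 3 fell (Ptprc by 0.93, Cd3e by 0.64 and Lyz2 by 0.51), and the mean of that list was 8.57 to 8.80 on controls and 8.04 to 8.25 on exposed arrays. Of the vomeronasal markers, Gnao1, which olfactory neurons also express, rose by 1.44 ± 0.41, and Gnai2 did not pass. The part of cell composition in the receptor differences was not tested. The lists' calls depended on the arrays in the fit: of the 66 genes, 4 were called when control replicate 1 was left out, 6 when control replicate 3 was and 5 when exposed replicate 1 was.

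After 28 days no member passed the threshold, and the values of exposed and control noses overlapped for all but 15 members. Of 270 members 0 rose and 0 fell (limma, adjusted p under 0.05), against 0.00342% of all probe sets called in either direction. At an unadjusted p under 0.05 there were 3 members, all higher, and 12.6% of all probe sets. Differences were above 0 for 220 of 270 members, with a median of 0.18. That median was 0.07 without control replicate 1, 0.31 without control replicate 3, 0.32 without exposed replicate 1 and 0.06 without exposed replicate 2. The median level over the members was 5.90, 6.08 and 6.41 on controls and 6.11, 6.63 and 6.27 on exposed arrays, so the groups overlapped. All 3 exposed arrays exceeded all 3 controls for 15 members (5.56%, against 6.16% of all probe sets), and for 0 members were they all below (7.95% of all probe sets).

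The 3 members with the smallest p were Or5p4, Or5g9 and Or8g4. Or5p4 read 6.60, 6.69 and 6.68 on controls and 6.90, 7.29 and 6.91 on exposed arrays, a difference of 0.38 ± 0.14 (limma, adjusted p = 0.3149). The differences of Or5g9 and Or8g4 were 0.52 ± 0.20 and 0.54 ± 0.22 (adjusted p = 0.3223 and 0.3438). Their differences after 7 days, 0.22, 0.51 and 0.47, did not pass. None of the 66 olfactory pathway genes passed at 28 days either. The odour transduction list had a median difference of 0.96 there. Its mean level was 8.34, 10.25 and 9.96 on control replicates 1 to 3 and 10.3 to 10.7 on exposed arrays, so control replicate 1 alone was far below.

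Members with large rises at 7 days had much smaller differences at 28 days. They were named for the size of the 7-day difference, so a smaller value in another set of arrays is partly built in. Or8k40 read 6.09, 7.30 and 7.40 on 28-day controls and 7.30, 7.49 and 7.38 on exposed arrays. Or5k17 read 5.03, 5.96 and 6.42 and then 6.38, 6.48 and 5.97. Or5h17c read 4.01, 5.20 and 7.56 and then 6.39, 6.36 and 7.22, a difference of 1.07 ± 0.70 (limma, adjusted p = 0.5611). In these 3 genes the exposed arrays lay close together and the controls were spread, with control replicate 1 lowest. Of the 118 members that rose at 7 days 97 had a difference above 0 at 28 days, with a median of 0.11, and the median of the other 152 was 0.23. Across the 270 genes, which share arrays and are not independent, the differences at the 2 durations had a Spearman rho of 0.15 and a Pearson r of 0.21, given as a description.

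**Figure D4:**
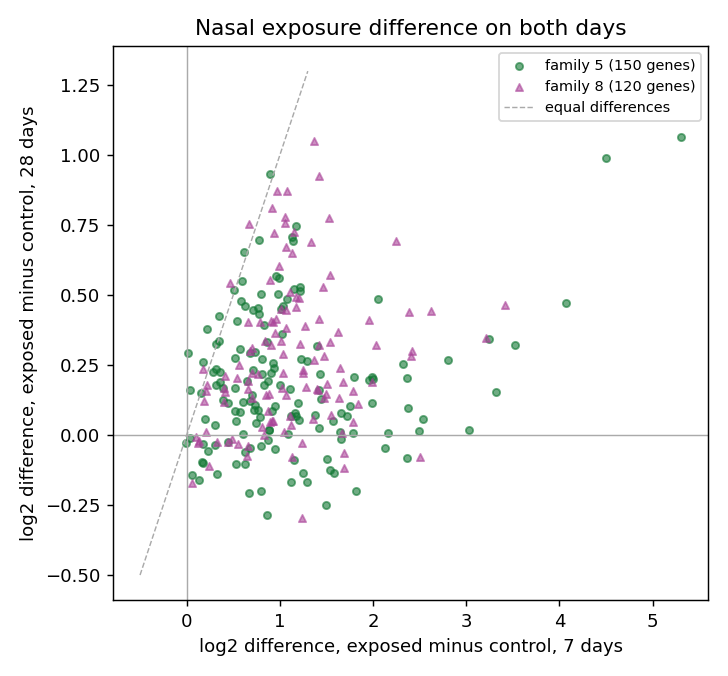
Log2 difference between exposed and control nose arrays at 28 days (vertical) against that at 7 days (horizontal), 1 point per gene, with family 5 as circles and family 8 as triangles. The axes have different ranges and the dashed line marks equal differences. Differences reach 5.31 at 7 days and 1.07 at 28 days.

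The difference between the durations was itself tested. For 15 of 270 members (5.56%) the effect was smaller at 28 days than at 7 days, and for 0 it was larger (limma interaction, adjusted p under 0.05), against 0.466% and 0.0308% of all probe sets. All 15 were among the 118 that rose at 7 days, an overlap that subtracting the 7-day effect largely builds in. At an unadjusted p under 0.05 there were 113 members (12.5% of all probe sets in either direction), all with the smaller effect at 28 days, and the median over the 270 was −0.68 (−0.44 without control replicate 1 at 7 days). The largest passing differences were in Or5h17 (−3.16 ± 0.54, adjusted p = 0.03732), Or8k40 (−2.96 ± 0.50, adjusted p = 0.03516), Or8b44 (−2.87 ± 0.47, adjusted p = 0.03276), Or5t5b (−2.54 ± 0.39, adjusted p = 0.02819) and Or5b106 (−2.48 ± 0.40, adjusted p = 0.03108). In Or5h17 the 28-day values were 2.69, 2.55 and 3.84 on controls and 2.66, 3.20 and 3.68 on exposed arrays, so that the groups overlapped. Or8b44 read 4.99, 5.92 and 6.20 and then 5.82, 6.48 and 5.85, and Or5t5b read 5.42, 5.60 and 5.74 and then 5.66, 6.17 and 5.73. The adjusted p-values lay close to the threshold: the count was 63 without control replicate 1 at 28 days, 30 without exposed replicate 2 at 7 days, 28 with a replicate block, 5 after quantile normalization and 1 with the lower-quartile filter. Leaving out 7-day control replicate 1, 2 or 3 gave 6, 0 and 0, and leaving out 7-day exposed replicate 3 gave 4. At 28 days the counts were 3 and 0 with control replicate 2 or 3 left out, and 0, 0 and 5 with exposed replicate 1, 2 or 3 left out.

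In white blood cells no receptor of either family passed the threshold at either duration. At 7 days 0 of 270 were called (limma, against 0.0479% of all probe sets higher and 0.14% lower, 0.188% in all). The median difference was −0.02, and 10 members had an unadjusted p under 0.05, as did 12.8% of all probe sets. At 28 days 0 were called (limma, against 2.56% of all probe sets higher and 0.626% lower, 3.18% in all). The median was 0.00, and 10 members had an unadjusted p under 0.05, as did 14.7% of all probe sets. All exposed arrays exceeded all controls for 15 members at 7 days and 10 at 28 days, against 16.6% and 7.74% of all probe sets. They were all below for 11 and 10 members, against 9.01% and 7.67%. The smallest p at 7 days was that of Or8c15b, which read 3.74, 4.01 and 4.14 on controls and 4.38, 4.26 and 4.26 on exposed arrays (0.34, adjusted p = 0.1781), followed by Or8c10 (−0.65) and Or5j1 (0.30). At 28 days Or8c16 read 3.02, 3.20 and 3.14 and then 3.29, 3.56 and 3.67 (0.39, adjusted p = 0.08288), followed by Or8g50 (0.44) and Or5ak24 (−0.31). Without exposed replicate 1 at 28 days 2 members passed.

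Other class II families also had members that rose in the nose at 7 days, where 7.22% of all probe sets rose. In family 4, 114 of 133 genes rose (85.7%, median difference 1.62), in families 1, 2 and 7 together 163 of 248 (65.7%, 1.04) and in families 6 and 9 to 14 together 163 of 276 (59.1%, 0.92). Among class I receptors, the more ancient group, 7 of 121 rose (5.79%, below the share of all probe sets) and 1 fell. Even so, 112 of the 121 class I differences were above 0, with a median of 0.43 beside −0.05 for all probe sets. Families 5 and 8, with 118 of 270, lay between these, and the differences between families were not tested.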

How the data were processed

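The authors deposited 1 normalised intensity per probe set and array, on a linear scale, for 29214 probe sets and 24 arrays. Per the submitters' processing notes Partek was used. How it summarised and normalised the probes, and in which version, is not given in the sources here. The 7-day and 28-day arrays were on different scales. Intensities were taken to log2 with no further normalization or filter. Gene symbols came from the platform's table, in which 15310 probe sets carried 1 symbol and 15279 of these matched a RefSeq gene.

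In R 4.3.3, limma 3.58.1 was fitted with default settings to 4 group means on the 12 arrays of a tissue, or to 8 group means on all 24 arrays for nose against blood. Tests were two-sided, with Benjamini-Hochberg adjustment over all probe sets. The fits were tested on simulated data. With 3 arrays in a group, their number limits the precision.

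Members, gene lists and the rule for named genes were chosen with earlier results of these data known. Named genes were, by size, the 12 largest rises in nose at 7 days, up to 5 members past the threshold (or the 3 smallest p-values) in the other exposure comparisons, the 5 most negative and 3 most positive differences between durations, the 5 brightest in nose controls, the 3 largest and 2 smallest differences between nose and blood controls, and the leading gene of each subfamily of at least 4. Genes and grouping in the account of the control arrays, and near-copies of named genes, were chosen after their values were seen.

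Whether replicate numbers pair control with exposed arrays was checked through the correlation of deviations from group means. In nose at 28 days r was 0.13, 0.13 and 0.19, each over the limit of 0.1 that was used. Arrays of different number were not correlated, so these values cannot tell whether the numbers pair arrays. The labels do not say either. In nose at 7 days r was −0.13, −0.01 and −0.03, and in blood it ran from −0.30 to 0.09. Figures were drawn with matplotlib 3.10.9.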

Additional observations from a re-analysis of the deposited data

Results flagged for a closer look

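The effect of exposure in nose differed between the durations, by limma's test of the difference itself, for 15 members, each with a smaller effect at 28 days. Among the genes named by rule, the 28-day effect minus the 7-day effect was −3.16 in Or5h17, −2.96 in Or8k40, −2.87 in Or8b44, −2.54 in Or5t5b and −2.48 in Or5b106. The 2 durations are also 2 sets of arrays on different scales, so duration and array set cannot be told apart.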

How the results depend on the processing

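The 118 members that rose in nose at 7 days became 41 of 114 tested with the lower-quartile filter and 3 of 21 tested with the median filter, and ran from 76 to 118 with each array left out. Counts under quantile normalization (110), centring (119), another prior (118), only the arrays compared (117), averaged probe sets (118) and adjusted p under 0.1 (150) were within 1.5 times. With the replicate block 97 members rose in nose at 7 days and 0 at 28 days. The block also moved the pathway genes called at 7 days from 19 to 11 and the members whose effect differed between durations from 15 to 28. It ended or moved no other count of calls by over 1.5 times.

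Pathway genes called were 41 when only the arrays compared were fitted, 37 at adjusted p under 0.1 and 4 to 15 with each array left out. The count of 15 was 1 with the lower-quartile filter, 0 with the median filter, 5 with quantile normalization, 43 at adjusted p under 0.1 and 0 to 63 with each array left out. The 5 named genes of that comparison each lost the call in 8 to 12 alternatives. At 28 days in nose and at 7 days in blood 0 members were called in every fit run. In blood at 28 days the count was 2 at adjusted p under 0.1 and 0 to 2 with each array left out.

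Against blood, the 7-day counts of 240 higher and 0 lower became 126 higher and 29 lower (155 called) with arrays centred. With the lower-quartile filter 7 of 12 members tested were called at 7 days and 11 of 12 at 28 days, where 263 of 270 were called without it. The median filter left no member to test in comparisons that involve blood. No named gene reversed. Where no value or construction shows it, the cause was not tested. Most members were dim, and 3 arrays a group limit what these tests can call.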
